A study of Mus musculus with 14 samples.

Results

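The comparison asks how far the response of mouse blood progenitors to N-Myc differed between cells homozygous and cells heterozygous for a Polg mutation. It is the difference of 2 effects on the log2 scale: the Hom effect (Hom-NMyc minus Hom-Ctrl) minus the Het effect (Het-NMyc minus Het-Ctrl). A positive value means that NMyc minus Ctrl was more positive in Hom than in Het cells. The arrays were chosen by the genotype and the vector in the sample titles, which write the N-Myc vector as MNyc, and 9 of the 14 arrays of the series enter the comparison. They were 2 Hom-NMyc, 2 Hom-Ctrl, 2 Het-NMyc and 3 Het-Ctrl arrays, and the remaining arrays, 2 WT-NMyc and 3 WT-Ctrl, entered the fit only through the estimate of the spread. The number of arrays limits the precision.

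Hom cells carried the mutant Polg allele in both copies (Polgmut/mut), Het cells in 1 copy (Polgwt/mut) and WT cells in none (Polgwt/wt). All groups were hematopoietic progenitor cells (HPCs), bone marrow cells depleted of lineage-marked cells by magnetic separation and kept in culture for 48 hours before transduction. The NMyc groups received the retrovirus MSCV-NMyc-IRES-YFP, which carries N-Myc with a yellow fluorescent marker, and the Ctrl groups received MSCV-IRES-YFP, which carries the marker alone. The viral long terminal repeat drives N-Myc in these vectors, not the gene's own promoter, and the share of cells that took up the virus is not given in the sources used here. Ages, the time between transduction and harvest and the kind of Polg mutation are not given in them either. The arrays are labelled as biological replicates with no number of animals, so a p-value here reflects only how far these samples spread.

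Polg encodes the enzyme core of the DNA polymerase of mitochondria, and mutant forms of it with poor proofreading are known to fill mitochondrial genomes with mutations. N-Myc, the product of Mycn, is a transcription factor that binds DNA with its partner Max and drives growth, ribosome production and metabolism, and its overexpression in marrow progenitors is known to cause leukemia in mice. Faulty mitochondria are known to trigger the integrated stress response, in which the transcription factor ATF4 raises genes of amino acid supply, and DNA damage activates p53.

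Mycn was read first as a check of the vector. Its log2 value was 12.38 and 12.28 in Hom-NMyc, 9.77 and 7.61 in Hom-Ctrl, 12.27 and 12.15 in Het-NMyc, and 7.53, 7.5 and 7.65 in Het-Ctrl. Hom-Ctrl replicate 1 stood above the other Ctrl arrays of both genotypes, and no cause for this is given in the sources used here. The Mycn difference of effects was -1.01 (SE 0.57, adjusted p = 0.796), and it was 0.07 without Hom-Ctrl replicate 1. The counts and list medians that moved most without a Hom-Ctrl array are given below with those values. Polg itself stood at 7.29 and 7.44 in Hom-NMyc, 7.04 and 6.95 in Hom-Ctrl, 7.62 and 7.43 in Het-NMyc, and 7.25, 7.23 and 7.42 in Het-Ctrl, with a difference of effects of 0.15 (adjusted p = 0.961). Whether these probes tell mutant from normal Polg transcripts is not given, so they check nothing about the genotype.

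The sample codes form 3 runs of numbers, which the labels do not call batches. Run 2 holds 1 array of each of the 4 groups, and run 3 holds no Hom-Ctrl array. Eif2s3y, a Y-linked gene chosen after its values were seen, was 3.59 to 3.96 in the replicate 1 arrays of the 3 Ctrl groups, which make up run 1, and 8.23 to 9.78 in all others. The median of positive control sets exceeded that of negative ones by 4.27 to 4.52 in the Hom-NMyc and Het-NMyc arrays and by 3.79 to 4.10 in the Hom-Ctrl and Het-Ctrl arrays. The part of these differences in the results was not tested. The progenitor markers Kit and Cd34 and the leukocyte gene Ptprc were well above the negative control median of 4.39 to 4.80 in all 9 arrays. Kit, the stem cell factor receptor, lay between 9.33 and 10.07. Cd34 was 8.26 to 9.21 in the NMyc arrays and 9.455 to 9.68 in the Ctrl arrays. Ptprc, the pan-leukocyte antigen CD45, was 9.20 to 9.55 with NMyc and 10.66 to 11.19 with Ctrl, so both were lower with NMyc without overlap.

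The response to N-Myc passed the test for a difference between Hom and Het cells in 7 of 22206 probe sets, 0.0315% of those tested (limma, Benjamini-Hochberg adjusted p under 0.05, here called). The difference was positive in 5 (0.0225%) and negative in 2 (0.00901%). At an unadjusted p under 0.05 there were 788 positive and 749 negative differences, 6.92% of all tested together. The standard error of a difference of effects had a median of 0.263, and the smallest called difference was 1.21 in size. All 7 had an adjusted p of 0.0462. This count rested on single arrays: leaving out any 1 of 11 arrays (each Het-Ctrl, Het-NMyc, Hom-NMyc and WT-NMyc array, and WT-Ctrl replicate 1 or 2) left 0 calls, with 1055 to 1737 probe sets at an unadjusted p under 0.05. Without Hom-Ctrl replicate 1, 3 probe sets were called and 0 of the 7 were among them. Without Hom-Ctrl replicate 2, 3 were called, of which 1 (Siglecf) was among the 7, and without WT-Ctrl replicate 3 all 7 were kept among 8. With the code run as a block 3 probe sets were called, of which 1 (Olfr266) was among the 7. In runs 2 and 3 alone 0 were called, with 1859 at an unadjusted p under 0.05. The sign of all 7 was the same under each of the 24 alternatives that were tested.

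Each of the 2 effects was large by itself. In Hom cells 2367 probe sets were higher with NMyc than with Ctrl (10.7%) and 1557 lower (7.01%). In Het cells 2456 were higher (11.1%) and 1776 lower (8%). The Hom counts were 1305 higher without Hom-Ctrl replicate 1, 1511 higher and 854 lower without Hom-NMyc replicate 1, and 1142 higher and 845 lower without Hom-NMyc replicate 2. The Het counts were 1487 higher and 1017 lower without Het-NMyc replicate 1, and 1445 higher and 1045 lower without Het-NMyc replicate 2. The difference between these effects can be split the other way, into the genotype difference under each vector. With Ctrl, 297 probe sets were higher in Hom than in Het (1.34%) and 236 lower (1.06%). These became 258 higher and 168 lower without Hom-Ctrl replicate 1 but 25 higher and 30 lower without Hom-Ctrl replicate 2. They were 182 higher and 157 lower without Het-Ctrl replicate 1, 154 lower without Het-Ctrl replicate 2, and 72 higher and 91 lower without Het-Ctrl replicate 3. With NMyc, 0 were called in either direction, the smallest adjusted p was 0.433 and 1093 had an unadjusted p under 0.05. The 533 probe sets called with Ctrl (2.4%) showed the split directly. The 297 higher in Hom-Ctrl had a median difference of 0.83 with Ctrl and of 0.21 with NMyc, and the 236 lower in Hom-Ctrl had medians of -0.91 with Ctrl and -0.07 with NMyc. These sets were chosen on the Ctrl arrays, which by itself makes the Ctrl value the larger one.

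For all 7 called probe sets the genotype difference was larger with Ctrl than with NMyc, with median sizes of 1.03 and 0.335. Among all tested probe sets 56.5% were larger with Ctrl, with median sizes of 0.167 and 0.139. Of the 100 probe sets with the smallest p, 91 were larger with Ctrl. The 7 genes thus stood apart mostly between the Hom-Ctrl and the Het-Ctrl arrays, and lay closer together between the Hom-NMyc and the Het-NMyc arrays.

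**Figure D1:**
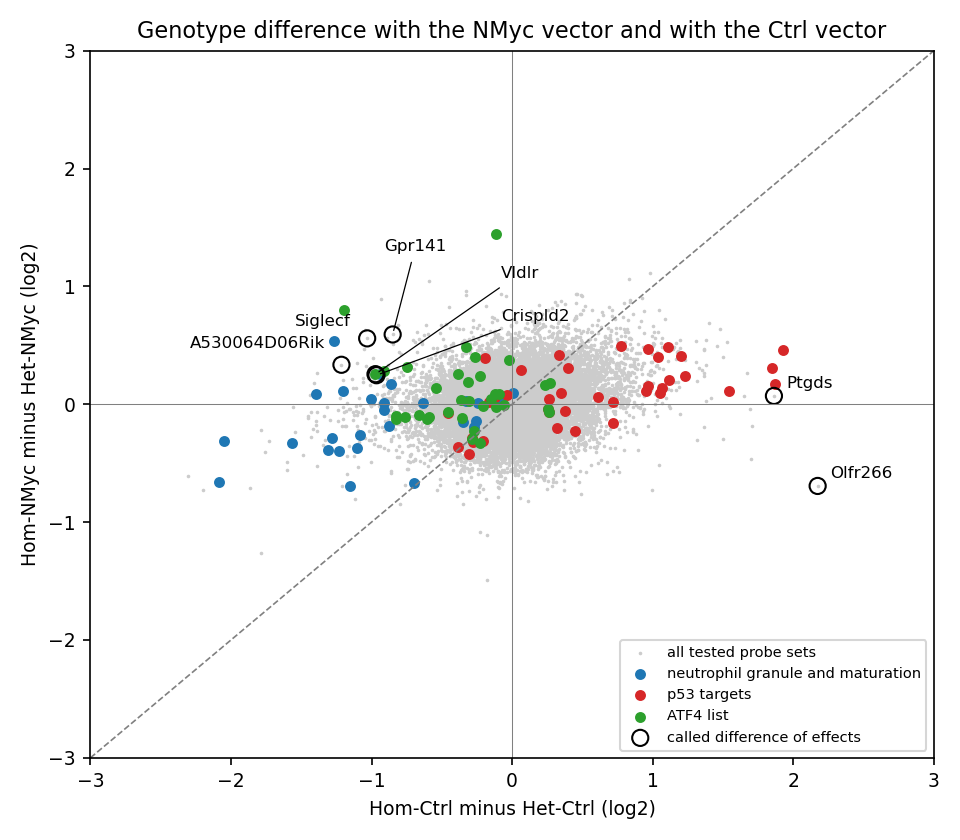
Genotype difference of every tested probe set: Hom-Ctrl minus Het-Ctrl on the horizontal axis and Hom-NMyc minus Het-NMyc on the vertical axis (both log2), with the diagonal of equal differences dashed. The 7 called probe sets (circled) all lie further from 0 along the horizontal axis than along the vertical one, with the 5 positive calls on the left and Ptgds and Olfr266 on the right.

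Siglecf encodes a sialic acid-binding lectin of eosinophils and alveolar macrophages. It measured 7.46 and 7.52 in Hom-NMyc, 6.90 and 7.39 in Hom-Ctrl, 6.88 and 6.97 in Het-NMyc, and 8.14, 8.30 and 8.09 in Het-Ctrl. Each of the 3 Het-Ctrl arrays lay above all others, and the Hom-NMyc arrays lay just above the Hom-Ctrl ones. NMyc minus Ctrl was 0.34 in Hom (SE 0.19, adjusted p = 0.249) and -1.25 in Het (SE 0.17, adjusted p = 9.13e-05), a difference of effects of 1.59 (SE 0.25, 95% interval 1.05 to 2.13, adjusted p = 0.0462). Fewer cells of a type and less RNA per cell cannot be told apart in such bulk samples. The other 8 eosinophil genes measured, among them Prg2 and Epx of the granule, gave 0 calls. Prg2 had a difference of effects of 0.37 and Epx of -0.31, and both fell with NMyc in Hom (-1.77 and -2.31) and in Het (-2.14 and -2.00).

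Gpr141, an orphan G protein-coupled receptor, was the one positive call whose 2 effects both passed the test, in opposite directions. Its values were 9.55 and 9.55 in Hom-NMyc, 8.92 and 8.79 in Hom-Ctrl, 8.91 and 9.0 in Het-NMyc, and 9.83, 9.56 and 9.72 in Het-Ctrl. Hom-NMyc lay above Hom-Ctrl and Het-NMyc lay below Het-Ctrl, with no overlap in either pair. It rose by 0.70 in Hom (SE 0.17, adjusted p = 0.0082) and fell by 0.74 in Het (SE 0.15, adjusted p = 0.00236), a difference of 1.44 (SE 0.23, 95% interval 0.96 to 1.92).

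Vldlr encodes the very low density lipoprotein receptor, which takes up lipoproteins. It measured 6.53 and 6.64 in Hom-NMyc, 6.86 and 6.96 in Hom-Ctrl, 6.33 and 6.32 in Het-NMyc, and 7.86, 7.89 and 7.90 in Het-Ctrl. The Het-Ctrl arrays stood together and above the 6 others. The Het effect was -1.56 (SE 0.13, adjusted p = 1.93e-06) and the Hom effect -0.33 (SE 0.14, adjusted p = 0.14), a difference of 1.23 (SE 0.19, 95% interval 0.81 to 1.64). Crispld2, which encodes a secreted protein, was likewise highest in Het-Ctrl. It measured 6.77 and 6.88 in Hom-NMyc, 6.83 and 6.79 in Hom-Ctrl, 6.50 and 6.66 in Het-NMyc, and 7.74, 7.77 and 7.81 in Het-Ctrl. Hom-NMyc and Hom-Ctrl overlapped, with an effect of 0.02 (SE 0.14, adjusted p = 0.952), while the Het effect was -1.19 (SE 0.13, adjusted p = 1.4e-05), which left a difference of 1.21 (SE 0.19).

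The fifth positive call, A530064D06Rik, carries a clone symbol, which the naming rule leaves out, so it was chosen after its values were seen. It measured 5.79 and 5.89 in Hom-NMyc, 6.30 and 6.03 in Hom-Ctrl, 5.54 and 5.46 in Het-NMyc, and 7.34, 7.57 and 7.23 in Het-Ctrl. Both NMyc groups and Hom-Ctrl lay below every Het-Ctrl array, and the difference of effects was 1.55 (SE 0.24).

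**Figure D2:**
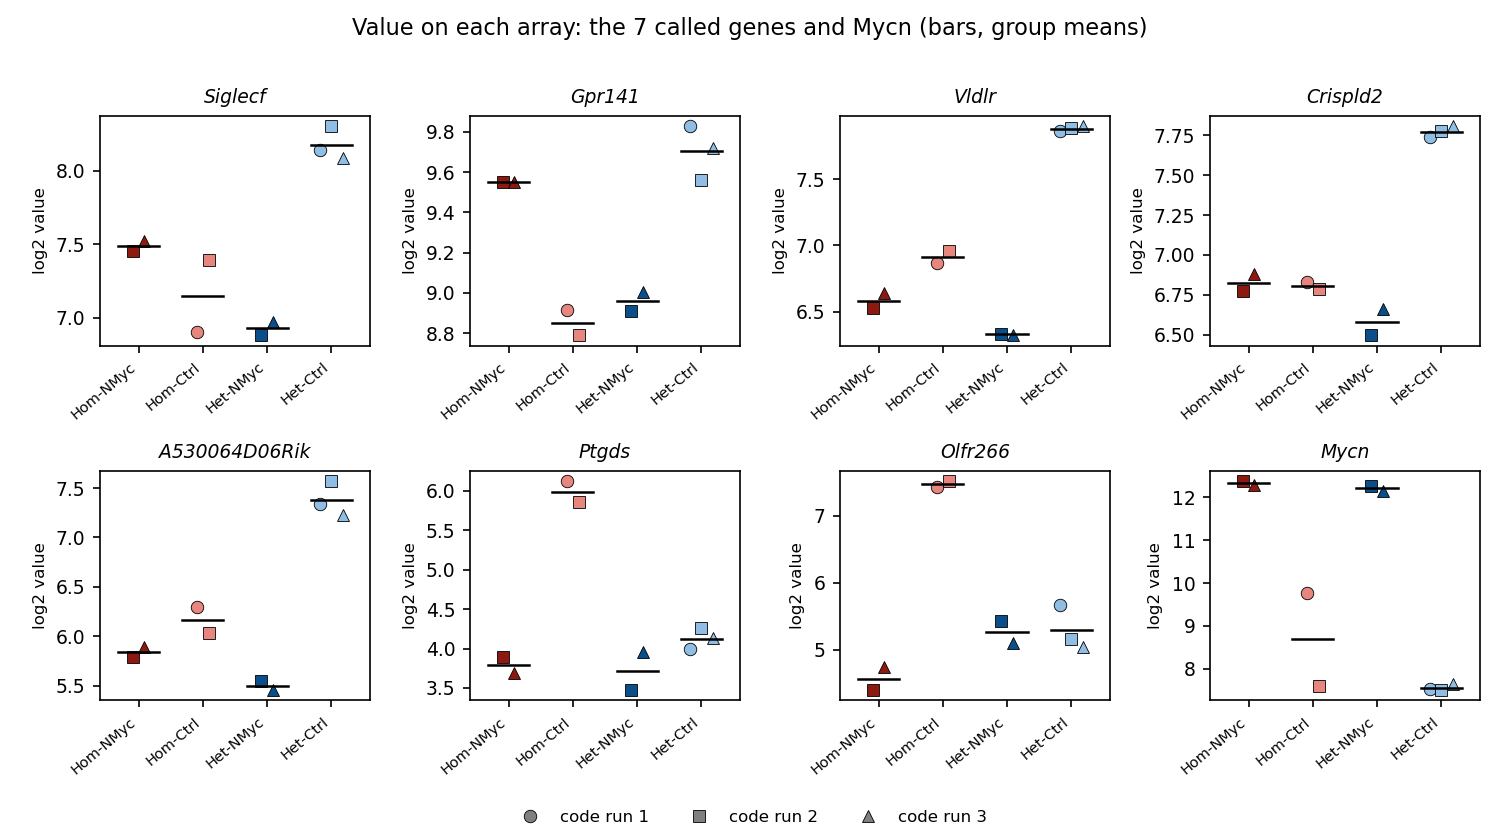
Log2 value of the 7 called genes and of Mycn on each Hom and Het array, by group from Hom-NMyc to Het-Ctrl, with bars at the group means and marker shapes for the run of the sample codes. Het-Ctrl is the highest group for the 5 positive calls, Hom-Ctrl stands apart from the others for Ptgds and Olfr266, and 1 Hom-Ctrl array stands apart for Mycn.

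Of the negative calls, Olfr266, an odorant receptor gene, measured 4.40 and 4.75 in Hom-NMyc, 7.42 and 7.52 in Hom-Ctrl, 5.43 and 5.10 in Het-NMyc, and 5.68, 5.17 and 5.04 in Het-Ctrl. The Hom-Ctrl arrays stood alone above the rest, and 8 of the 9 arrays were above the negative control median. The Hom effect was -2.90 (SE 0.32, adjusted p = 3.4e-05) and the Het effect -0.03 (SE 0.29, adjusted p = 0.969), a difference of -2.87 (SE 0.43, 95% interval -3.79 to -1.95). Odorant receptors form a large family of similar genes, so other members could add to the signal of such a probe set.

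Ptgds encodes the lipocalin-type prostaglandin D2 synthase. It was above the negative control median only in Hom-Ctrl, at 6.12 and 5.85, while the arrays measured 3.89 and 3.69 in Hom-NMyc, 3.47 and 3.96 in Het-NMyc, and 3.99, 4.26 and 4.13 in Het-Ctrl. With values below that median set to it, Ptgds was at least 2.95-fold lower in Hom-NMyc than in Hom-Ctrl. It was likewise at least 2.51-fold higher in Hom-Ctrl than in Het-Ctrl. As fitted, with no floor, Ptgds had a Hom effect of -2.20 (adjusted p = 1.58e-05) and a Hom-Ctrl minus Het-Ctrl value of 1.86 (adjusted p = 0.00065). Its difference of effects was -1.79 (SE 0.29) as fitted and -1.38 with that floor. Among 19 measured genes of arachidonic acid metabolism it was the only call.

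The genes with the next smallest p did not pass. On the positive side they were Phactr2 (1.46, adjusted p = 0.0613), a regulator of phosphatase and actin, the membrane scaffold gene Magi3 (1.38, 0.081 for the adjusted p) and the organic anion transporter gene Slco4c1 (1.68, adjusted p = 0.081), besides Ltf, Trem3 and Cth described below. On the negative side Nomo1, an endoplasmic reticulum membrane protein gene, had -0.93 (adjusted p = 0.164), the pseudokinase gene Ulk4 -1.25 (adjusted p = 0.174) and Tnfrsf8, which encodes CD30, -1.08 (adjusted p = 0.202). Cd226, the gene of an activating receptor of lymphoid and myeloid cells, had -1.61 (adjusted p = 0.225), and the phosphatase gene Ptp4a3 -0.99 (adjusted p = 0.225). Amy2a2, an amylase gene with near-identical copies, was above the negative control median in 3 of 9 arrays, and its value of -1.18 (adjusted p = 0.176) was -0.26 with the floor.

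Cd226 combined a large effect in both genotypes with a genotype difference. It measured 6.52 and 6.49 in Hom-NMyc, 10.40 and 10.53 in Hom-Ctrl, 6.92 and 6.69 in Het-NMyc, and 9.41, 9.37 and 8.69 in Het-Ctrl. The NMyc arrays of both genotypes lay far below the Ctrl arrays. It fell by 3.96 in Hom (SE 0.26, adjusted p = 1.54e-06) and by 2.35 in Het (SE 0.24, adjusted p = 9.47e-06), and it was 1.31 higher in Hom-Ctrl than in Het-Ctrl (adjusted p = 0.0103).

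Many neutrophil maturation genes fell with NMyc in both genotypes, and many were lower in Hom-Ctrl than in Het-Ctrl. The list holds the proteins of secondary granules, which are made as precursors turn into neutrophils, and surface receptors that appear with them. Of its 27 measured members, 13 fell and 2 rose in Hom (backgrounds 7.01% and 10.7%), while 22 fell and 0 rose in Het (backgrounds 8% and 11.1%). With Ctrl, 16 of 27 were lower in Hom than in Het (background 1.06%), and with NMyc 0 were called. The difference of effects was positive in 27 of 27, with a median of 0.832 against -0.0125 over all tested, although Hp (haptoglobin, named after its values were seen) stood at 0.02 and was -0.01 after quantile normalization. None of the 27 was called by limma and 17 had an unadjusted p under 0.05 (background 3.55%). The median was 1.03 without Hom-Ctrl replicate 1, 0.555 without Hom-Ctrl replicate 2 and 0.906 within run 2. The 16 members lower in Hom-Ctrl became 17 without replicate 1 and 5 without replicate 2, while over all probe sets the calls lower in Hom-Ctrl numbered 168 and 30.

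Ltf encodes lactoferrin, the iron-binding protein of secondary granules. It measured 9.34 and 9.73 in Hom-NMyc, 10.81 and 10.29 in Hom-Ctrl, 9.42 and 9.49 in Het-NMyc, and 11.98, 11.89 and 11.98 in Het-Ctrl. The NMyc arrays of both genotypes reached the same level, and Het-Ctrl lay highest. It fell by 1.02 in Hom (SE 0.18, adjusted p = 0.00119) and fell by 2.50 in Het (SE 0.17, adjusted p = 3.31e-07), with a difference of 1.48 (SE 0.25, adjusted p = 0.0613). Cd177, a glycoprotein of the neutrophil surface and granules, measured 8.18 and 8.54 in Hom-NMyc, 9.31 and 8.90 in Hom-Ctrl, 8.55 and 8.82 in Het-NMyc, and 10.66, 10.71 and 10.63 in Het-Ctrl. Both effects passed the test, in Hom (-0.74, SE 0.18, adjusted p = 0.00771) and in Het (-1.98, SE 0.16, adjusted p = 1.55e-06), but their difference of 1.24 did not (SE 0.24, adjusted p = 0.144). For Itgb2l, an integrin subunit gene of neutrophils, the effects were -0.90 in Hom and -1.94 in Het, both past the test, and their difference was 1.04 (adjusted p = 0.154).

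Trem3, a gene of the TREM family of myeloid receptors, had effects of opposite sign. Its values were 10.34 and 10.62 in Hom-NMyc, 9.69 and 9.60 in Hom-Ctrl, 10.11 and 10.34 in Het-NMyc, and 10.65, 10.57 and 10.52 in Het-Ctrl. Hom-Ctrl was the lowest group by a clear margin. It rose in Hom (0.84, SE 0.15, adjusted p = 0.00147), while the Het effect of -0.36 did not pass (SE 0.14, adjusted p = 0.098), and the difference was 1.19 (SE 0.21, adjusted p = 0.081). Clec5a, a lectin receptor that signals through DAP12, rose in Hom by 1.64 (SE 0.38, adjusted p = 0.00627) with a Het effect of -0.09, but its Hom-Ctrl arrays lay far apart at 7.86 and 6.61. The Clec5a difference of effects, 1.73, was 2.36 without Hom-Ctrl replicate 1 and 1.11 without Hom-Ctrl replicate 2. Retnlg, a resistin-like gene of neutrophils named after its values were seen, fell by 2.51 in Hom and fell by 4.31 in Het, a difference of 1.80 (SE 0.43, adjusted p = 0.266).

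The summed linear signal of this list was 40600 to 44100 in Hom-NMyc, 53700 to 61600 in Hom-Ctrl, 44200 to 46900 in Het-NMyc and 82600 to 90200 in Het-Ctrl. It was lower in every NMyc array than in every Ctrl array, and lower in both Hom-Ctrl than in the 3 Het-Ctrl arrays. Linear sums, in which bright genes weigh most, were higher in Hom-Ctrl than in Het-Ctrl without overlap for some other marker lists. Gene by gene, Hom-Ctrl minus Het-Ctrl was positive in 17 and negative in 6 mast cell and basophil genes. It was positive in 13 and negative in 7 T and NK genes, and in 10 and 9 stromal and endothelial genes. The split was 13 positive and 13 negative for stem and progenitor genes, and 8 and 5 for erythroid genes. Stem and progenitor genes summed to 16300 to 16600 in Hom-Ctrl and 13200 to 13800 in Het-Ctrl. Erythroid genes summed to 2450 to 2760 in Hom-Ctrl and 1740 to 2200 in Het-Ctrl. The mast cell and basophil list (23 genes) summed to 54300 to 63000 in Hom-Ctrl and 41900 to 49500 in Het-Ctrl, with 5 members not above background in either group. The T and NK list (20 genes) summed to 2410 to 2690 in Hom-Ctrl and 1820 to 2150 in Het-Ctrl, with 3 such members in each. The stromal and endothelial list (19 genes) summed to 4010 to 4350 in Hom-Ctrl and 2530 to 3380 in Het-Ctrl, with 4 such members in each. The part of these markers in the neutrophil values was not tested. The sum of earlier neutrophil genes, those of primary granules, was also lower in both Hom-Ctrl than in the 3 Het-Ctrl arrays. Unlike the maturation list, it was not lower in the NMyc arrays. It was 32800 to 34500 in Hom-NMyc, 23900 to 25800 in Hom-Ctrl, 29200 to 33300 in Het-NMyc and 26500 to 29500 in Het-Ctrl. The 11 primary granule genes had a median difference of effects of 0.33 and 0 calls, with Prss57 (0.58) and Prtn3 (0.55), both serine protease genes, at the smallest p.

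**Figure D3:**
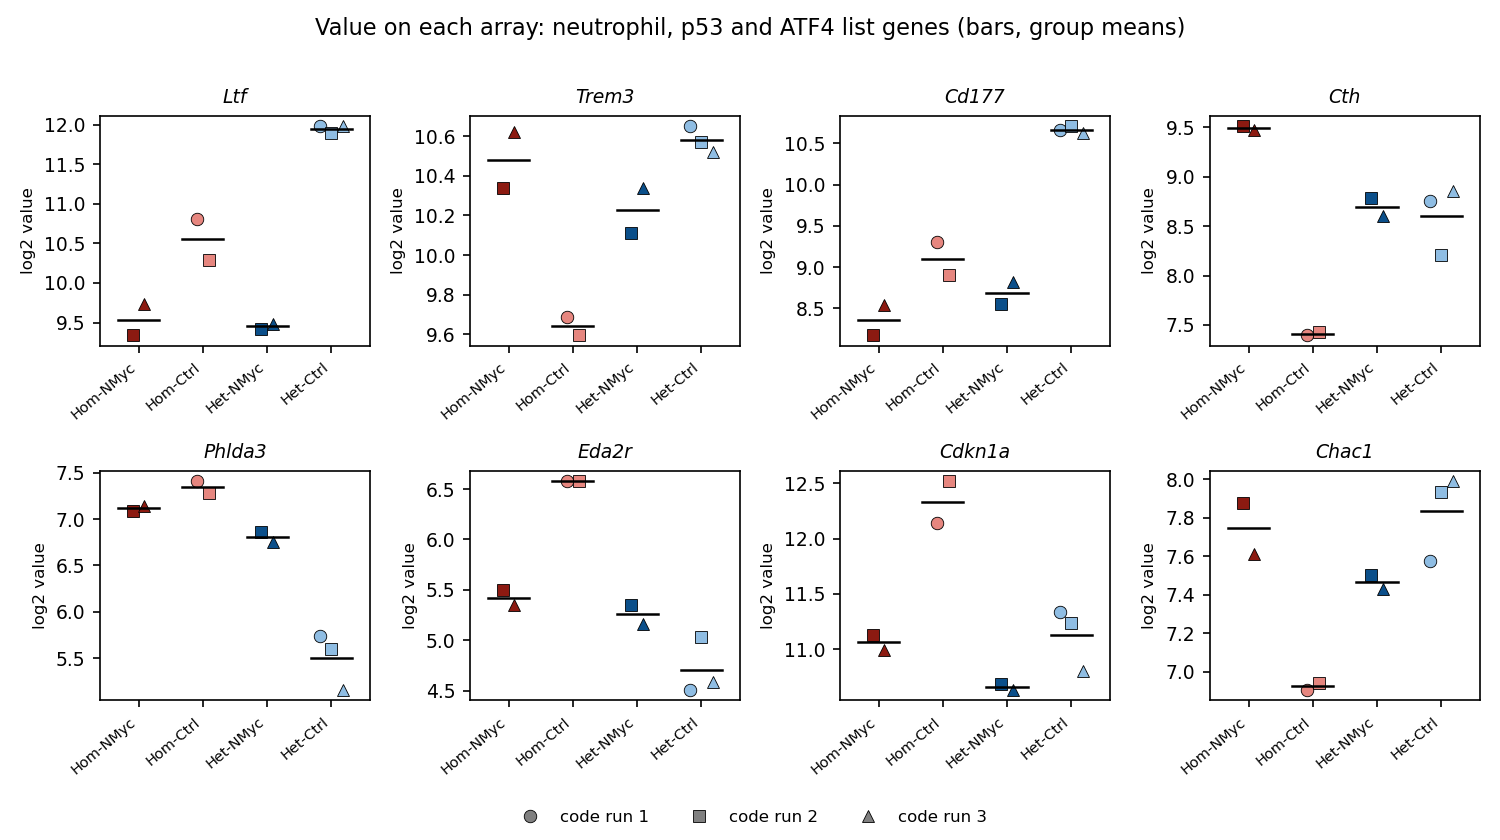
Log2 value of 3 neutrophil genes (Ltf, Trem3, Cd177), 3 p53 targets (Phlda3, Eda2r, Cdkn1a) and 2 ATF4-list genes (Cth, Chac1) on each Hom and Het array, with bars at group means and marker shapes for the run of the sample codes. Ltf and Cd177 are highest in Het-Ctrl, Phlda3 lowest in Het-Ctrl, and Cth lowest in Hom-Ctrl.

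Targets of p53 had the opposite pattern: many were higher in Hom-Ctrl than in Het-Ctrl, and the genotype difference was smaller with NMyc. Hom minus Het had a median of 0.419 with Ctrl and of 0.098 with NMyc. With NMyc it was still positive in 26 members and negative in 12. Of 38 measured members, 16 were higher in Hom-Ctrl than in Het-Ctrl and 0 lower (backgrounds 1.34% and 1.06%), and 0 were called with NMyc. In Hom 13 fell with NMyc and 0 rose (backgrounds 7.01% and 10.7%), and in Het 6 fell and 8 rose (backgrounds 8% and 11.1%). The difference of effects was negative in 30 of 38, with a median of -0.462 against -0.0125 over all tested. None was called by limma, and 16 were negative with an unadjusted p under 0.05 (background 3.37%). The median was -0.474 without Hom-Ctrl replicate 1, -0.469 without Hom-Ctrl replicate 2 and -0.465 within run 2. Without replicate 1 the members higher in Hom-Ctrl numbered 10, and without replicate 2 they numbered 5, while those over all probe sets numbered 258 and 25.

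Phlda3 encodes a small protein that restrains the kinase Akt at the membrane. It measured 7.09 and 7.14 in Hom-NMyc, 7.41 and 7.29 in Hom-Ctrl, 6.86 and 6.75 in Het-NMyc, and 5.74, 5.59 and 5.16 in Het-Ctrl. Only the Het-Ctrl arrays were low. NMyc minus Ctrl was -0.23 in Hom (SE 0.21, adjusted p = 0.531) and 1.31 in Het (SE 0.20, adjusted p = 0.000199), a difference of -1.54 (SE 0.29, adjusted p = 0.12). Aen, an apoptosis-enhancing nuclease gene, and Tnfrsf10b, the gene of the mouse TRAIL death receptor, had the same order of effects: Aen had -0.09 in Hom and 0.80 in Het (adjusted p = 0.00153), and Tnfrsf10b -0.44 in Hom and 0.55 in Het (adjusted p = 0.0257). Their differences of -0.88 and -0.99 had adjusted p-values of 0.328 and 0.28. Zmat3, an RNA-binding zinc finger gene named after its values were seen, rose in Het by 0.99 (adjusted p = 0.014), with a Hom effect of -0.47 (adjusted p = 0.312) and a difference of -1.46 (SE 0.39, adjusted p = 0.343).

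Eda2r, a receptor of the ectodysplasin ligand EDA-A2, measured 5.50 and 5.35 in Hom-NMyc, 6.58 and 6.58 in Hom-Ctrl, 5.35 and 5.16 in Het-NMyc, and 4.50, 5.03 and 4.58 in Het-Ctrl. Hom-Ctrl stood above all others, and 2 Het-Ctrl arrays were not above the negative control median. It fell in Hom by 1.16 (SE 0.25, adjusted p = 0.00396), the Het effect was 0.55 (SE 0.23, adjusted p = 0.111), and their difference was -1.71 (SE 0.33, adjusted p = 0.154). Cdkn1a encodes p21, an inhibitor of cyclin-dependent kinases. It measured 11.13 and 10.99 in Hom-NMyc, 12.14 and 12.52 in Hom-Ctrl, 10.68 and 10.63 in Het-NMyc, and 11.34, 11.24 and 10.80 in Het-Ctrl, so that the Hom-NMyc arrays overlapped the Het-Ctrl range. Cdkn1a fell by 1.26 in Hom (SE 0.20, adjusted p = 0.000499) against -0.47 in Het (SE 0.18, adjusted p = 0.0913), a difference of -0.79 (adjusted p = 0.546). Mdm2, which encodes the ligase that degrades p53 and was named after its values were seen, had effects of -0.74 in Hom (adjusted p = 0.00558) and -0.10 in Het (adjusted p = 0.736).

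The ATF4 and integrated stress response list had mostly positive differences. Of 35 measured members, 12 rose and 5 fell with NMyc in Hom (backgrounds 10.7% and 7.01%), and 4 rose and 7 fell in Het (backgrounds 11.1% and 8%), so the members that rose in Het were near the share over all probe sets. With Ctrl, 5 were lower in Hom than in Het and 0 higher (backgrounds 1.06% and 1.34%), and with NMyc 0 were called. The 5 became 3 without Hom-Ctrl replicate 1 and 2 without Hom-Ctrl replicate 2. The difference of effects was positive in 29 of 35, with a median of 0.403. One member, Vldlr, was called (background 0.0225%), and 8 had an unadjusted p under 0.05, all positive (background 3.55%). The median was 0.504 without Hom-Ctrl replicate 1, 0.391 without Hom-Ctrl replicate 2 and 0.311 within run 2. The enzymes of serine synthesis that the list holds rose in both genotypes. Phgdh, the first of them, rose by 1.36 in Hom and 1.27 in Het, and Psat1, the next, by 1.25 in Hom and 1.06 in Het. Ddit3, which encodes the pro-death factor CHOP, had effects of -2.40 in Hom and -2.33 in Het, both past the test.

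Cth encodes cystathionine gamma-lyase, the last enzyme of transsulfuration, which makes cysteine. It measured 9.51 and 9.47 in Hom-NMyc, 7.40 and 7.42 in Hom-Ctrl, 8.79 and 8.60 in Het-NMyc, and 8.76, 8.21 and 8.85 in Het-Ctrl. Hom-NMyc was the highest and Hom-Ctrl the lowest group, with the Het arrays of both vectors overlapping between them. It rose in Hom by 2.08 (SE 0.26, adjusted p = 8.85e-05) with a Het effect of 0.09 (SE 0.24, adjusted p = 0.871), a difference of 1.99 (SE 0.36, 95% interval 1.24 to 2.75, adjusted p = 0.081). It was 1.2 lower in Hom-Ctrl than in Het-Ctrl (adjusted p = 0.0165), and Hom-NMyc minus Het-NMyc was 0.80 (adjusted p = 0.978).

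Chac1, which encodes an enzyme that breaks down glutathione, measured 7.88 and 7.61 in Hom-NMyc, 6.90 and 6.94 in Hom-Ctrl, 7.5 and 7.43 in Het-NMyc, and 7.58, 7.93 and 7.99 in Het-Ctrl. It rose in Hom by 0.82 (SE 0.18, adjusted p = 0.00476), the Het effect was -0.37 (SE 0.17, adjusted p = 0.151), and their difference was 1.19 (SE 0.24, adjusted p = 0.176). Hom-Ctrl again lay lowest with no overlap. Jdp2, a repressor of the AP-1 family, fell in both genotypes, by 0.49 in Hom (SE 0.16, adjusted p = 0.0485) and by 1.22 in Het (SE 0.15, adjusted p = 3.89e-05), a difference of 0.72 (SE 0.22, adjusted p = 0.439). Atf4 itself rose in Hom (0.62) and not past the test in Het (0.05), and was lower in Hom-Ctrl than in Het-Ctrl (-0.66), with a difference of effects of 0.57. Asns, the asparagine synthetase gene and a standard ATF4 target, had effects of 1.00 in Hom, past the test, and 0.18 in Het.

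Promoters of these genes were set against the DNA element that ATF4 binds with a C/EBP partner. The element was searched as TGATGNAA on both strands of 300-base windows, from 250 bases before to 50 bases after each RefSeq transcription start (build GRCm38.p6). Of the list's genes 31 matched 40 windows, and 11 windows held it (27.5%) against 3.97% of all 32851 windows. The list was written as one of ATF4 response genes, so this share can follow from how it was made. It says nothing about the difference of effects. The windows of 27 neutrophil genes held it in 0 of 28 and those of 33 p53 targets in 1 of 45 (2.22%). A stretch of each of 3 members is shown because these members had the differences described here and a match in the window, Vldlr being the one called member. They are 30 bases each of the strand that carries the gene, here the plus strand, from RefSeq, with the 8 bases of the match in capitals. Vldlr (chr19:27216809-27216838) and Chac1 (chr2:119351038-119351067) hold the element on the minus strand, so that the plus strand shows its reverse complement, from position -200 to -193 and from -193 to -186 relative to the start. Jdp2 (chr12:85599372-85599401) holds it on the plus strand from -33 to -26:
Vldlr: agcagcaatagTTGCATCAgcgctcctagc
Chac1: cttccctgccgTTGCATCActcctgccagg
Jdp2: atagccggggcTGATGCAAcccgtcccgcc
The capitals are the same 8 bases in all of them, read on 1 strand or the other. None of these stretches holds any of the other motifs searched. Such a match is a description of the sequence and does not show that a factor binds there. Those were the E-box that N-Myc and Max bind (CACGTG, found in 7.15% of all windows), the GC box (GGGCGG, found in 35.7%) and the TATA box (TATAAA, found in 13.6%), each on both strands. The whole windows of Vldlr, Chac1 and Jdp2 did hold the GC box. In Jdp2 a match ran from -16 to -11, past the end of the stretch at -15. The TATA box was in 39.3% of the neutrophil windows, and the GC box in 62.2% of the p53 windows and 57.5% of the ATF4-list windows.

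**Figure D4:**
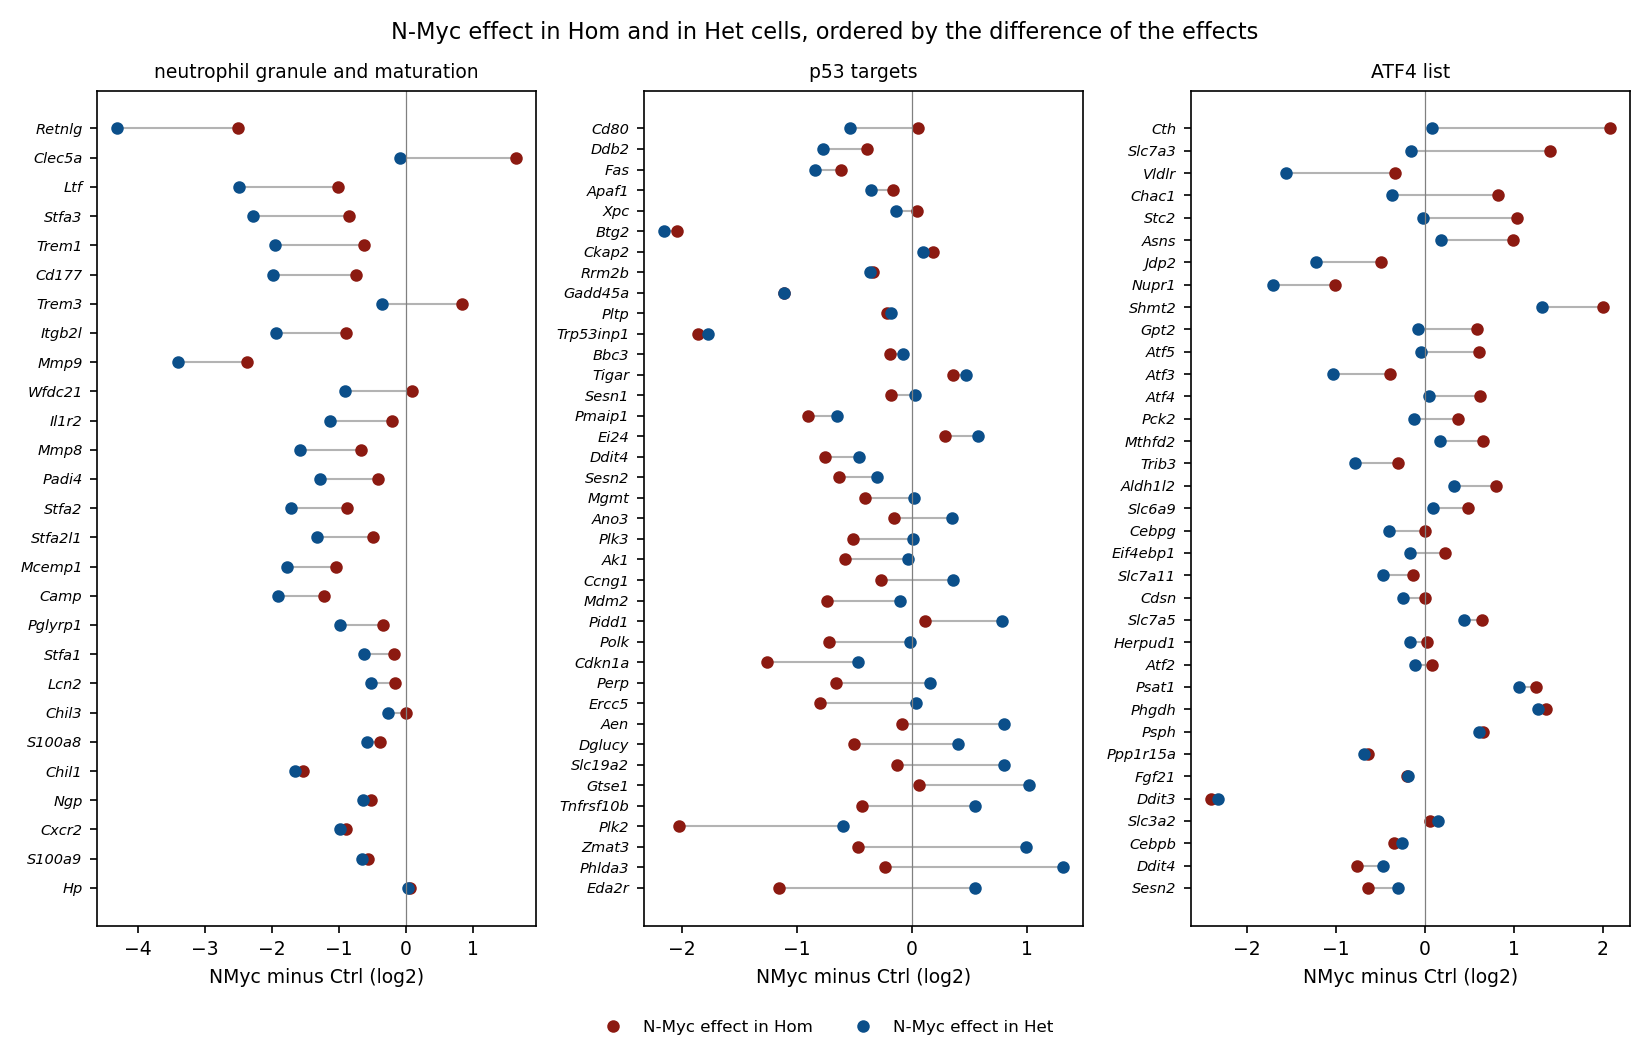
NMyc minus Ctrl (log2) in Hom (dark red) and Het (dark blue) for each measured member of the neutrophil maturation, p53 target and ATF4 lists, ordered by the difference of the effects. Hom points lie to the right of Het points for 27 of 27 neutrophil genes and 29 of 35 ATF4-list genes, and to the left for 30 of 38 p53 targets.

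The monocyte, macrophage and dendritic list had a median of 0.304 over 32 members and 0 calls for the difference. With NMyc, 13 of them fell and 1 rose in Hom (backgrounds 7.01% and 10.7%), and 18 fell and 0 rose in Het (backgrounds 8% and 11.1%). F13a1, the factor XIII subunit made by monocytes, fell in Het by 1.60 (SE 0.18, adjusted p = 2.63e-05) with a Hom effect of -0.31, a difference of 1.29 (SE 0.27, adjusted p = 0.209). Ccr2, the receptor that guides monocytes out of the marrow, fell by 1.16 in Hom and by 2.01 in Het. Retnla had a fitted difference of 1.35, but only Het-Ctrl arrays were above the negative control median, and it was 0.30 with the floor. The list's median was -0.0126 without Hom-Ctrl replicate 2 and 0.604 without Hom-Ctrl replicate 1, so its sign rested on 1 array. The summed signal of the list was 13200 to 14000 in Hom-NMyc, 22300 to 29200 in Hom-Ctrl, 12600 to 13800 in Het-NMyc and 27600 to 34000 in Het-Ctrl.

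Growth factor receptors were 17 measured genes with a median of 0.168 (0.293 within run 2) and 0 called. Of them, 4 were positive with an unadjusted p under 0.05 (background 3.55%). Csf3r, the receptor of the neutrophil growth factor G-CSF, measured 10.45 and 10.50 in Hom-NMyc, 10.16 and 9.91 in Hom-Ctrl, 10.22 and 10.50 in Het-NMyc, and 10.79, 10.90 and 11.03 in Het-Ctrl. It was lower in Hom-Ctrl than in Het-Ctrl by every array (-0.87, adjusted p = 0.00675) and fell in Het (-0.55, adjusted p = 0.0149), with a Hom effect of 0.43 (adjusted p = 0.0786) and a difference of 0.98 (adjusted p = 0.225). Kit fell in Het (-0.54, adjusted p = 0.0401), the Hom effect was 0.38 (adjusted p = 0.206), and the difference was 0.92 (adjusted p = 0.37). Among BCL2 family genes, Bcl2a1b, an antiapoptotic gene, had effects of -0.94 in Hom and -2.35 in Het and a difference of 1.41 (adjusted p = 0.189). Bcl2a1a and Bcl2a1d, its near-identical copies, had differences of 1.58 and 1.24, and such copies can share probes, so the 3 values are not independent.

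Amino acid transporters had a median difference of 0.269 over 18 genes and 0 calls, and the median was 0.1 without Hom-Ctrl replicate 1, 0.241 without Hom-Ctrl replicate 2 and 0.14 within run 2. Slc1a4, which carries neutral amino acids, rose in Hom by 1.53 (SE 0.40, adjusted p = 0.0141) with a Het effect of 0.24 (SE 0.37, adjusted p = 0.744), though its Het-Ctrl arrays ranged from 5.78 to 7.17. Slc7a7, a subunit of a cationic amino acid exchanger, rose in Hom by 0.96 (adjusted p = 0.0213) with a Het effect of -0.22 (adjusted p = 0.631). Cars, the cysteinyl-tRNA synthetase gene, rose in Hom by 0.71 (SE 0.15, adjusted p = 0.0039) with a Het effect of -0.05 (adjusted p = 0.868), and its Hom-Ctrl arrays, at 8.79 and 8.66, lay below all others. Over all 33 aminoacyl-tRNA synthetases, however, the median difference was 0.04, with a sign that turned without Hom-Ctrl replicate 1 (-0.01), within run 2 (-0.11) and after quantile normalization. Of these genes 21 rose in Hom and 20 in Het (backgrounds 10.7% and 11.1%). Pdk1, the kinase that shuts off pyruvate entry into the citric acid cycle, rose in Hom by 1.07 (adjusted p = 0.0118), had -0.27 in Het (adjusted p = 0.545) and a difference of 1.35 (adjusted p = 0.348).

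Several lists of growth and mitochondrial genes, in which N-Myc effects were widespread, had medians near 0 or slightly negative. DNA replication genes rose in 24 of 38 members in Hom and 21 in Het. Their median difference was positive at 0.182, with 29 of 38 positive, but was -0.07 within run 2. Ribosome biogenesis genes rose in 47 of 51 members in Hom and 48 of 51 in Het, with a median difference of -0.04 that was 0.04 without Hom-Ctrl replicate 2, -0.14 without Hom-Ctrl replicate 1 and -0.25 within run 2. The backgrounds for these counts are 10.7% in Hom and 11.1% in Het. The mitochondrial ribosome rose in 44 of 76 in Hom and 56 of 76 in Het, with a median difference of -0.178, and complexes II to V of the respiratory chain rose in 17 of 46 in Hom and 31 of 46 in Het, with -0.186. Their difference of effects was negative in 56 of 76 and in 38 of 46 members, against 11507 of 22206 over all tested. Negative members numbered 55 and 36 without Hom-Ctrl replicate 1, 57 and 36 without Hom-Ctrl replicate 2, and 60 and 38 within run 2. There were 0 calls, and 2 members of each list had an unadjusted p under 0.05 with a negative sign (background 3.37%). Mrpl34, a protein gene of the large mitochondrial ribosomal subunit, had the smallest p of these, rising by 0.52 in Hom and by 1.28 in Het. Its values were 8.67 and 8.58 in Hom-NMyc, 8.0 and 8.21 in Hom-Ctrl, 8.38 and 8.65 in Het-NMyc, and 7.40, 7.22 and 7.07 in Het-Ctrl. The Het-Ctrl arrays were the low ones, and the NMyc arrays of both genotypes overlapped. Uqcr11, a complex III subunit gene, rose in Het by 0.94 (adjusted p = 0.000748) and had 0.28 in Hom (adjusted p = 0.342).

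Several genes of biosynthesis rose with NMyc in both genotypes, and none of those named next passed the test of the difference. Mtap, the methionine salvage enzyme, measured 10.69 and 10.73 in Hom-NMyc, 9.88 and 10.14 in Hom-Ctrl, 10.53 and 10.49 in Het-NMyc, and 8.69, 8.95 and 8.45 in Het-Ctrl. With NMyc the Hom and Het arrays lay close together, and with Ctrl the Hom arrays stood clearly above the Het arrays. It rose by 0.70 in Hom (SE 0.19, adjusted p = 0.0154) and by 1.82 in Het (SE 0.17, adjusted p = 4.53e-06), a difference of -1.12 (SE 0.25, adjusted p = 0.225). Srm, the spermidine synthase gene, rose by 1.40 in Hom and 2.19 in Het, Cad, which starts pyrimidine synthesis, by 1.18 in Hom and 2.10 in Het, and the nucleoside diphosphate kinase gene Nme1 by 0.93 in Hom and 1.67 in Het. Their differences had adjusted p-values of 0.57, 0.429 and 0.52.

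Sterol and fatty acid synthesis genes had a negative difference in 23 of 24 members and a median of -0.303. There were 0 calls, and 3 were negative with an unadjusted p under 0.05 (background 3.37%). Without Hom-Ctrl replicate 1, 23 were negative (median -0.438), without Hom-Ctrl replicate 2, 20 (median -0.273), and within run 2, 18 (median -0.242). In Hom 5 rose and in Het 9 rose (backgrounds 10.7% and 11.1%). Scd1, the stearoyl-CoA desaturase gene, measured 8.83 and 7.75 in Hom-NMyc, 8.77 and 8.84 in Hom-Ctrl, 9.91 and 9.65 in Het-NMyc, and 8.82, 8.88 and 9.25 in Het-Ctrl. It rose in Het by 0.80 (SE 0.25, adjusted p = 0.0337), and its Hom effect was -0.51 (SE 0.27, adjusted p = 0.233) with the 2 Hom-NMyc arrays far apart. Unlike most genes named here, it differed between genotypes more with NMyc (-1.49, adjusted p = 0.433) than with Ctrl (-0.18, adjusted p = 0.803). Across the list, Hom minus Het with NMyc was negative in 22 members and positive in 2, with a median of -0.149 and 0 calls. With Ctrl it was positive in 15 and negative in 9, with a median of 0.058 and 0 calls. Fasn, the fatty acid synthase gene, rose by 1.5 in Hom and 2.00 in Het. The heat shock and chaperone list had a median of -0.307, and Hspa5, the main chaperone of the endoplasmic reticulum, was higher in Hom-Ctrl than in Het-Ctrl (0.86, adjusted p = 0.018) and rose in Het (0.57, adjusted p = 0.0314), with a Hom effect of -0.14 (adjusted p = 0.691).

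Antigen presentation genes split: of 10 MHC class II genes, 6 had positive and 4 had negative differences, with 0 calls. H2-Ob and H2-Oa, the 2 chains of the MHC class II accessory molecule H2-O, had differences of effects of -1.80 (SE 0.44, adjusted p = 0.282) and -0.94 (SE 0.25, adjusted p = 0.328), and H2-DMb2, a chain of H2-M, had 1.15 (SE 0.31, adjusted p = 0.343). H2-Ob had a Hom effect of -2.58 (adjusted p = 8.56e-05), but its Hom-Ctrl arrays were 7.55 and 8.80, and the difference was -1.17 without Hom-Ctrl replicate 2 and -2.42 without Hom-Ctrl replicate 1. Inflammatory cytokine and NF-kB genes had 13 positive and 24 negative differences and 0 calls. Their median of -0.226 was -0.03 without Hom-Ctrl replicate 1, -0.38 without Hom-Ctrl replicate 2 and 0.03 within run 2. Of this list Il1a, the interleukin-1 alpha gene, was above the negative control median in both Hom-Ctrl arrays and in Het-Ctrl replicate 1 only. Its difference of -1.56 as fitted was -0.93 with the floor. The 26 stem and progenitor genes had 10 positive and 16 negative differences of effects and 0 calls. At an unadjusted p under 0.05, 3 were positive and 3 negative (backgrounds 3.55% and 3.37%). Among them Gata2, a transcription factor of early progenitors and mast cells, fell in Hom (-0.59, adjusted p = 0.0247) with a Het effect of 0.05 (adjusted p = 0.881). Its difference of -0.65 did not pass (adjusted p = 0.569). Meis1, a transcription factor of stem cells, fell by 1.77 in Hom and by 0.98 in Het, a difference of -0.80 (adjusted p = 0.62). Kit, also of this list, had a positive difference of 0.92.

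Myc, the paralog of Mycn, fell in both genotypes. It measured 10.35 and 10.64 in Hom-NMyc, 11.19 and 11.34 in Hom-Ctrl, 9.87 and 10.03 in Het-NMyc, and 11.43, 11.31 and 11.50 in Het-Ctrl. The Ctrl arrays of the genotypes overlapped, and the Hom-NMyc arrays lay above the Het-NMyc arrays. The effect was -0.77 in Hom (SE 0.18, adjusted p = 0.0062) and -1.46 in Het (SE 0.16, adjusted p = 1.77e-05), a difference of 0.69 (SE 0.24, adjusted p = 0.545). Max rose by 1.14 in Hom and 0.71 in Het, a difference of 0.42 (adjusted p = 0.773).

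**Figure D5:**
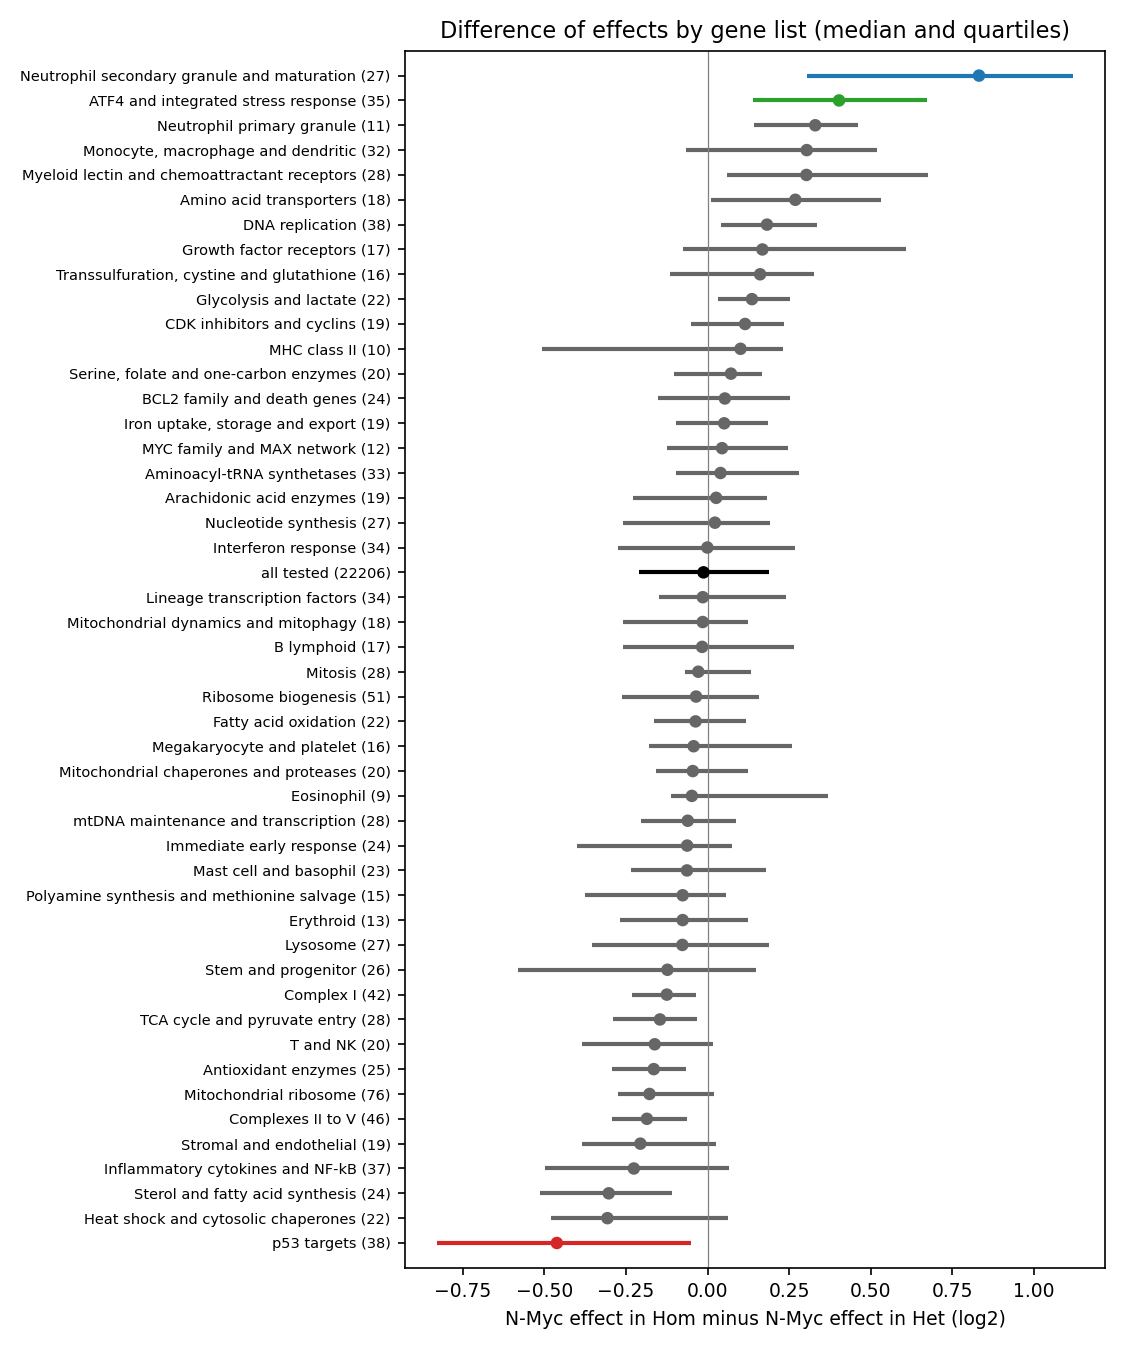
Median (point) and quartiles (line) of the difference of N-Myc effects, Hom minus Het (log2), for 47 gene lists with the number of measured members and for all tested probe sets. The neutrophil maturation list lies furthest right at 0.832 and the p53 target list furthest left at -0.462, and most other lists lie near the median of all tested.

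The Hom and the Het effect can each be set against the WT effect. Those comparisons share the Hom or the Het arrays with the present one, so their values stand side by side and are not separate support. The Hom effect minus the WT effect was called in 18 of 22206 probe sets (0.0811%), of which 16 were positive (0.0721%), and the Het effect minus the WT effect in 0 by limma, with 730 at an unadjusted p under 0.05. For Gpr141 the Hom effect minus the WT effect was 1.71 (adjusted p = 0.0131) and the Het effect minus the WT effect 0.27. Vldlr had 1.48 (adjusted p = 0.0131) against WT in Hom and 0.25 in Het, Siglecf 1.72 (adjusted p = 0.0147) in Hom and 0.13 in Het, and Cth 2.44 (adjusted p = 0.0147) in Hom and 0.45 in Het. Olfr266 had -2.20 in Hom, which did not pass (adjusted p = 0.0778), and 0.67 in Het. For Phlda3 the Hom effect minus the WT effect was -0.75 (adjusted p = 0.471) and the Het effect minus the WT effect 0.80, so the Het and Hom effects lay on either side of the WT effect there.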

How the data were processed

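RNA of 14 samples was measured on Affymetrix whole-transcript arrays. The deposited table holds log2 values, 1 per probe set and array, which, per the submitters' processing notes, the authors obtained from Affymetrix Expression Console. The sources used here name no version, summary method or normalization, and such scaling can remove a shift shared by most transcripts. That the scale is log2 follows from the range of 2.24 to 13.5, and no further scaling was applied.

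The table has 28846 probe sets, from which 6640 array controls were dropped, so 22206 were tested. Symbols came from the platform annotation, matched to RefSeq tables of GRCm38.p6: 19572 sets had 1 symbol and 2634 were unnamed. One model of 6 group means was fitted to all 14 arrays (limma 3.58.1 lmFit and eBayes, R 4.3.3, 8 residual and 7.3 prior degrees of freedom), 2-sided, adjusted by Benjamini-Hochberg over 22206 sets. Every adjusted p is limma's. The script was tested on simulated data. A value counts as near background when it is not above its array's median of negative control sets, and the floor sets such values to that median.

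The 47 lists (1353 entries, 1209 measured) and the arrays compared were chosen with earlier results of these data known, and no set test was made. Where a symbol had several probe sets, the one with the highest mean was used. Genes named are Mycn, Myc and Polg, up to 15 called genes per direction, filled up to 10 with those of smallest p, leaving out predicted and clone symbols, and per list called members and up to 4 members of smallest p. Outside that rule, A530064D06Rik, Asns, Atf4, Cd34, Ddit3, Eif2s3y, Epx, Hp, Mdm2, Phgdh, Psat1, Ptprc, Retnlg and Zmat3 were named after their values were seen. Quantile normalization, control and dim filters, eBayes options, blocks, array subsets and leaving out each array were tried as alternatives.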

Additional observations from a re-analysis of the deposited data

Results flagged for a closer look

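The N-Myc effect differed between Hom and Het cells by a test of the difference itself in 7 probe sets, each at an adjusted p of 0.0462 (limma). The difference of effects (log2, Hom minus Het) was 1.59 for Siglecf, 1.55 for A530064D06Rik, 1.44 for Gpr141, 1.23 for Vldlr, 1.21 for Crispld2, -1.79 for Ptgds and -2.87 for Olfr266. Within run 2 of the sample codes, with 1 array in each group and no test, the values were 1.49 for Siglecf, 1.78 for A530064D06Rik, 1.41 for Gpr141, 1.12 for Vldlr, 1.26 for Crispld2, -1.18 for Ptgds and -3.38 for Olfr266.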

How the results depend on the processing

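All 7 called probe sets had the same sign under each of the 24 tested alternatives, but 14 of these kept 0 of the 7 calls and 5 kept all 7. Positive and negative calls numbered 4 and 1 after quantile normalization, 0 and 0 with only the AFFX controls left out (1752 at an unadjusted p under 0.05), 16 and 3 with an intensity trend in eBayes, 0 and 1 with the 9 arrays alone, 3 and 1 with a replicate block, 2 and 1 with the code run as a block, 0 and 0 in runs 2 and 3 alone, and 12 and 3 with the floor, which was added after seeing the data. The cause was not tested. Deviations of same-numbered arrays correlated at -0.133 to 0.266 (7 of 31 pairs over 0.1, 12 below 0), so the numbers were not taken to pair the arrays. Those of the same code run correlated at -0.0137 to 0.266 (9 of 28 over 0.1, 2 below 0), and the code run as a block kept 1 of the 7 calls. In a group of 2 arrays the deviations mirror each other. Some pairs therefore repeat a value, and these counts of pairs are not counts of separate observations. Leaving out 1 array at a time gave 0 to 6 positive and 0 to 2 negative calls for the difference of effects, 25 to 363 higher and 30 to 286 lower in Hom-Ctrl than Het-Ctrl, 0 to 1 lower in Hom-NMyc than Het-NMyc, 1142 to 2569 higher and 845 to 1659 lower with NMyc in Hom, and 1445 to 2648 higher and 1017 to 1887 lower in Het. List medians then ran from 0.555 to 1.03 for neutrophil maturation, -0.537 to -0.281 for p53 targets and 0.308 to 0.53 for ATF4. Where a lone Hom-Ctrl array remained, it was assumed to vary like the other groups.

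The Mycn difference reversed to 0.089 in runs 2 and 3, 0.006 in run 2 and 0.071 without Hom-Ctrl replicate 1, the leave-one-out values running from -2.093 to 0.071. Polg reversed to -0.049 in run 2. Hp reversed to -0.008 after quantile normalization, and to -0.06 without Het-Ctrl replicate 1, -0.588 without Hom-Ctrl replicate 2, -0.149 without Het-NMyc replicate 1 and -0.069 without Hom-NMyc replicate 2, the leave-one-out values running from -0.588 to 0.636. Depth on arrays is signal over background, which limits Ptgds, Olfr266, Eda2r, Retnla, Il1a and Amy2a2.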
